A study of Mus musculus with 12 samples.

Results

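The mammalian circadian clock was followed in mouse dorsal skin through 10 genes: Arntl, Clock, Per1, Per2, Per3, Cry1, Cry2, Nr1d1, Nr1d2 and Dbp. The rows of the deposited gene table that carry these names were taken, 10 of 36400 genes, and all 10 were among the 21890 that entered the tests because they averaged 0.1 FPKM or more. FPKM is a fragment count divided by transcript length and library size, so it allows levels to be set side by side between genes. The study asked how human umbilical cord mesenchymal stem cells (MSCs) change skin with an atopic dermatitis-like inflammation, and RNA of dorsal skin was sequenced in 12 libraries, 3 per group. Groups were compared with the quasi-likelihood F-test of edgeR on the estimated counts of all tested genes. A gene passed when its p, adjusted over all tested genes by the Benjamini-Hochberg method, was under 0.05, and every fold change is given on the log2 scale with its standard error (SE).

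All mice were female BALB/c mice, 6 weeks old when purchased, and skin was taken on day 30. The control mice, named Solvent in the sample labels, had the vehicle of acetone and olive oil on the shaved back. The DNCB mice were sensitized with 1% 2,4-dinitrochlorobenzene (DNCB), a contact allergen, and then challenged with 0.5% DNCB up to day 27. The scMSC mice had the same DNCB course plus injections of 2000000 MSCs in 100 µL under the skin, and the scivMSC mice had 50 µL of the cell suspension under the skin and 50 µL in the tail vein, the last on day 25. The 3 comparisons within the DNCB-exposed mice and the 3 against control reuse the same libraries and are not independent of each other. The hour of day at which skin was taken is not given in the sources used here, so group and hour cannot be told apart. Nothing in the labels ties a library to a cage or a day. The p-values set a group difference against the spread among libraries within groups. That spread was estimated for each gene over all 4 groups together, and edgeR draws it toward a trend over all tested genes.

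The clock is a feedback loop of transcription that runs in nearly every cell, the keratinocytes, fibroblasts and hair follicle cells of skin included. BMAL1, the product of Arntl, and CLOCK bind E-box elements together and switch on the Per and Cry genes, whose proteins return to block them. The same pair switches on Nr1d1 and Nr1d2, which encode the REV-ERB receptors that repress Arntl through ROR elements, and Dbp, whose product acts at D-boxes in clock-controlled genes. Arntl and Nr1d1 or Dbp therefore peak at opposite phases of the day in peripheral tissues, with Per2 and Cry1 peaking later than Dbp. Here Arntl and Clock are called the activator arm, and the other 8 genes the E-box driven arm.

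The promoters of the clock genes were read from RefSeq on GRCm38.p6, in a window from 250 bases before to 50 bases after each transcription start. Of the 10 genes, 9 matched an entry, and Per2 did not. Motifs were searched on both strands. The E-box was spelled CACGTG. For the E-prime box the letters were CACGTT, printed as they read on the other strand. As D-box TTATGTAA was searched, and TTACGTAA as its second form. The ROR element core was taken as TAGGTCA, with TGGGTCA as its second form. The cAMP response element (TGACGTCA) and the palindromic glucocorticoid response element were searched as well. The E-box stood in the windows of Cry1 and Per1, the E-prime box in those of Cry1, Cry2 and Nr1d1, and the D-box in that of Per3, against 7.15%, 4.68% and 1.06% of all 32851 RefSeq promoter windows. The ROR element core, found in 6.45% of all windows, was present in that of the second Arntl start only, and the last pair of motifs, found in 1.79% and 0.00913%, was in no window of a clock gene. In the windows of Dbp, Clock and Nr1d2 none of these letters were found, which says nothing about elements further away. The 250 bases upstream of the start are printed for 4 genes, 5′ to 3′ on the strand of the gene, with the motif in capitals: Cry1, which rose in MSC-treated skin, Nr1d1 and Per3, which were lower in all DNCB-exposed groups, and Per1, which passed in no comparison. Cry1 (chr10:85185055-85185304, minus strand) holds an E-prime box at -79 and an E-box at -60 from the start, Nr1d1 (chr11:98775378-98775627, minus strand) an E-prime box at -28, Per1 (chr11:69098699-69098948, plus strand) an E-box at -166, and Per3 (chr4:151044666-151044915, minus strand) 2 D-boxes.
Cry1: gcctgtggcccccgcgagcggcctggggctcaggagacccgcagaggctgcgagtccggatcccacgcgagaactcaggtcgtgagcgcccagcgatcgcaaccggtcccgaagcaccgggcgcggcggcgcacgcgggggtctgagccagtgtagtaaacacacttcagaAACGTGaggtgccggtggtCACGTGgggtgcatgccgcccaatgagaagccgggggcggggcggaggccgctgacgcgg
Nr1d1: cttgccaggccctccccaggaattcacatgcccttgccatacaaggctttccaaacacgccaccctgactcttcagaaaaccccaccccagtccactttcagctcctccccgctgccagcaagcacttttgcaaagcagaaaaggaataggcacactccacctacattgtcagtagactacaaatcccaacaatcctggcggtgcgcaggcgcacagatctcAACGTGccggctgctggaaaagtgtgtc
Per1: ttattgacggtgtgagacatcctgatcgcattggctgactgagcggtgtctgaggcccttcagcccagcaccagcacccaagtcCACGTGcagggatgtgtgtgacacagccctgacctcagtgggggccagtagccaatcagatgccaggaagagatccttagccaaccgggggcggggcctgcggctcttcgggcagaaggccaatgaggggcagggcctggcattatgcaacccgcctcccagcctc
Per3: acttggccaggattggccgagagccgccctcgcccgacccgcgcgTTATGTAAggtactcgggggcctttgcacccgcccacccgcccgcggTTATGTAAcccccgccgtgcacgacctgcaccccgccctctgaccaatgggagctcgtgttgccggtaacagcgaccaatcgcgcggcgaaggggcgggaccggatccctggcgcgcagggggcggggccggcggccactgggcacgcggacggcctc

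Compared with the control group, 6 of the 10 clock genes were lower in the DNCB group and none was higher: Dbp, Nr1d1, Cry2, Per3, Nr1d2 and Per2. Among all tested genes 25.3% passed in this comparison and 12.4% passed as lower. The median log2 difference was -0.69 over the 10 clock genes and 0.02 over all genes tested. FPKM values of the groups were fully separate for 6 clock genes, 5 lower and Clock higher, and for 47.7% of all genes. In whole skin a lower level from fewer cells of a type and one from less RNA per cell cannot be told apart.

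Dbp, the D-box binding output gene (ENSMUSG00000059824, chr7:45705088-45710203 on GRCm38, plus strand), showed the widest range of group means among the clock genes. Its FPKM was 40.9, 39.6 and 48.6 in the control libraries, 8.41, 10.3 and 7.98 in the DNCB libraries, 12.7, 7.07 and 9.64 in the scMSC libraries, and 4.07, 4.14 and 5.40 in the scivMSC libraries. All 9 libraries of DNCB-exposed skin lay far below all 3 control libraries, and the 3 scivMSC libraries lay below every other library. Dbp was lower by a log2 difference of -2.45 ± 0.21 in DNCB than in control skin, 5.48-fold (adjusted p = 0.00034), and ranked 9 among 21890 genes by p-value. In scMSC skin it was lower than in control skin by -2.30 ± 0.21 (adjusted p = 0.000777). In scivMSC skin it was lower by -3.41 ± 0.22, 10.6-fold, with the smallest p-value of all 21890 genes (adjusted p = 0.000195). Sphk2 overlaps Dbp on the other strand, and whether counting used strand is not given in the sources used here.

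Nr1d1, which encodes REV-ERB alpha (ENSMUSG00000020889, chr11:98767932-98775333, minus strand), was likewise lower in every exposed library than in any control library. It stood at 53.2, 41.5 and 44.6 FPKM in control, 18.8, 17.8 and 19.9 in DNCB, 21.1, 13.4 and 13.4 in scMSC, and 8.77, 10.5 and 9.48 in scivMSC libraries. The control libraries were the highest 3 and the scivMSC libraries the lowest 3 of the 12. The log2 difference from control was -1.49 ± 0.17 in DNCB (adjusted p = 0.000599), -1.71 ± 0.17 in scMSC (adjusted p = 0.000777) and -2.45 ± 0.18 in scivMSC skin (adjusted p = 0.000361), where Nr1d1 ranked 2 by p-value, next after Dbp. Thra overlaps Nr1d1 on the other strand.

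Nr1d2, the gene of REV-ERB beta (ENSMUSG00000021775, chr14:18204054-18239127, minus strand), was lower in all 3 exposed groups to nearly the same extent. Its FPKM was 27.6, 26.3 and 29.6 in control, 19.0, 17.6 and 16.5 in DNCB, 21.2, 14.7 and 18.3 in scMSC, and 16.8, 17.1 and 19.6 in scivMSC libraries. The 9 exposed libraries overlapped each other and none reached the control range. The differences from control were -0.84 ± 0.13 (adjusted p = 0.00157), -0.79 ± 0.13 (adjusted p = 0.00302) and -0.81 ± 0.13 (adjusted p = 0.00557) in DNCB, scMSC and scivMSC skin. The ratio of Nr1d1 to Nr1d2 FPKM within a library ran from 1.51 to 1.93 in control, 0.992 to 1.21 in DNCB, 0.733 to 0.994 in scMSC and 0.484 to 0.615 in scivMSC skin, so the REV-ERB gene with the higher level in every control library had the lower level in every scMSC and scivMSC library.

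**Figure D1:**
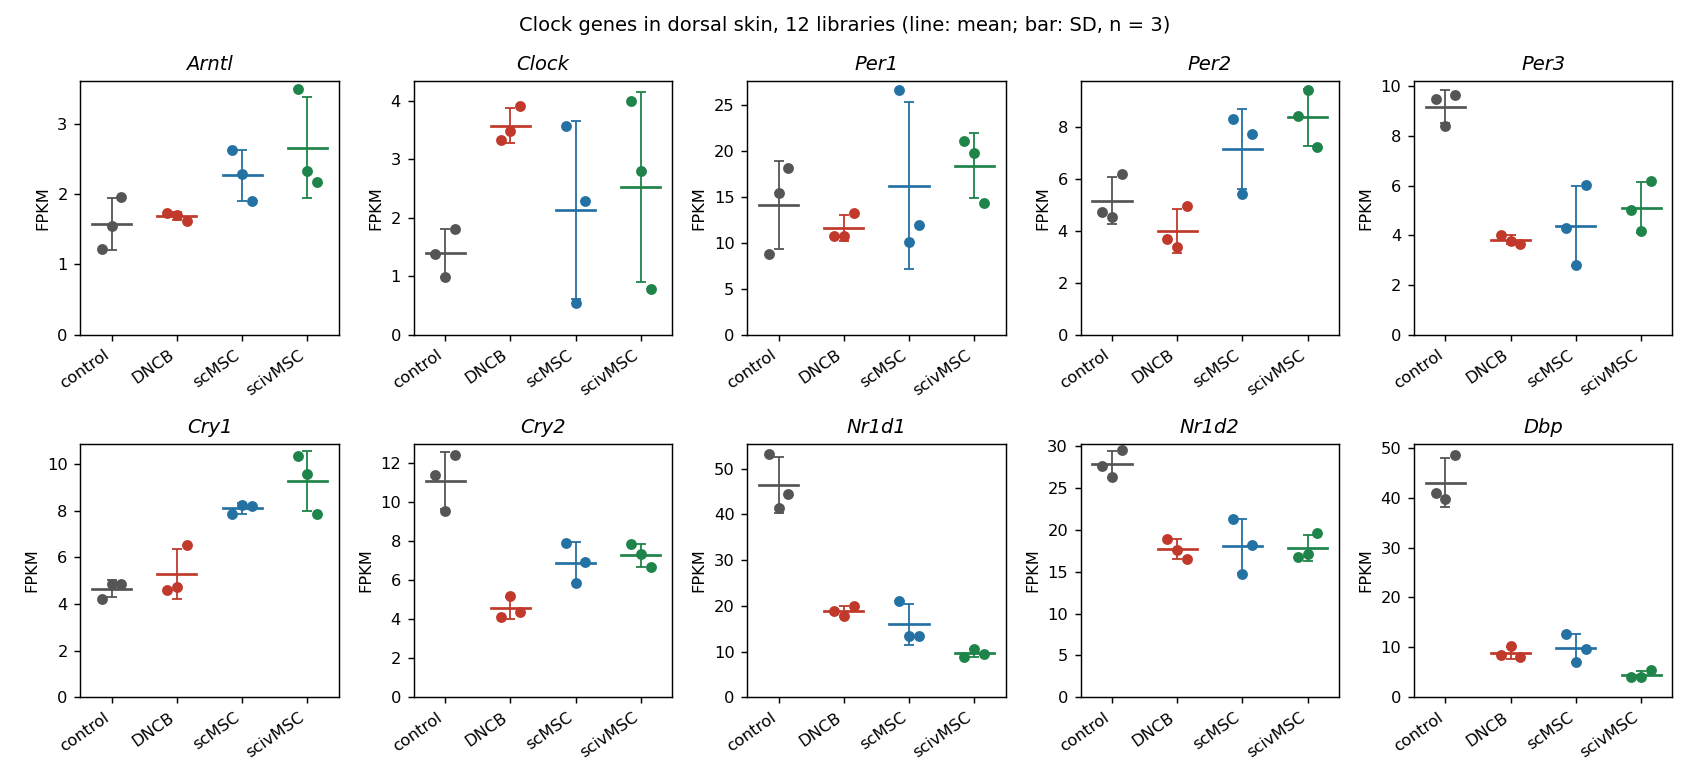
FPKM of the 10 clock genes in each library (points), with the mean (line) and SD (bar, n = 3) of each group, on linear axes from 0. Dbp, Nr1d1, Nr1d2, Per3 and Cry2 have all 3 control points above all 9 points of DNCB-exposed skin, while Cry1 rises in the MSC groups and the Clock points of the MSC groups spread from 0.541 to 4.01.

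Among the Per and Cry genes, Per3 and Cry2 passed as lower than in control in all 3 exposed groups, as Dbp, Nr1d1 and Nr1d2 did. Per3, a period gene with a D-box pair in its promoter window above (ENSMUSG00000028957, chr4:151003652-151044665, minus strand), had 9.48, 8.41 and 9.65 FPKM in control, 4.01, 3.77 and 3.67 in DNCB, 4.30, 2.82 and 6.03 in scMSC, and 5.03, 4.15 and 6.16 in scivMSC libraries. It differed from control by -1.45 ± 0.23 in DNCB (adjusted p = 0.00182), -1.24 ± 0.23 in scMSC (adjusted p = 0.00536) and -1.01 ± 0.23 in scivMSC skin (adjusted p = 0.0182). No exposed library came up to the control range, though all 3 scivMSC and 2 of the 3 scMSC libraries stood above all DNCB libraries. Camta1 overlaps Per3 on the same strand. The Per3 call in scivMSC skin was lost without scivMSC replicate 1 or 2, at an adjusted p of up to 0.0714.

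Cry2, a cryptochrome gene (ENSMUSG00000068742, chr2:92403646-92434043, minus strand), had the smallest spread among libraries of a group of the 10. FPKM was 11.4, 9.51 and 12.4 in control, 4.09, 5.18 and 4.37 in DNCB, 7.89, 5.83 and 6.94 in scMSC, and 7.82, 7.34 and 6.64 in scivMSC libraries. The DNCB libraries were the lowest 3, the control libraries the highest 3, and the MSC libraries lay between them without touching either. Cry2 was lower than in control by -1.47 ± 0.13 in DNCB (adjusted p = 0.00034), -0.85 ± 0.13 in scMSC (adjusted p = 0.00217) and -0.78 ± 0.13 in scivMSC skin (adjusted p = 0.00587).

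Cry1, the other cryptochrome gene (ENSMUSG00000020038, chr10:85131700-85185064, minus strand), went the other way. It stood at 4.23, 4.88 and 4.86 FPKM in control, 4.59, 4.73 and 6.54 in DNCB, 7.84, 8.24 and 8.22 in scMSC, and 10.4, 9.58 and 7.84 in scivMSC libraries. The 6 MSC libraries were all above the 6 libraries of the control and DNCB groups, which overlapped. The difference between DNCB and control was -0.003 ± 0.16 (adjusted p = 0.996). Against control, Cry1 rose by 0.64 ± 0.16 in scMSC (adjusted p = 0.0169) and by 0.81 ± 0.16 in scivMSC skin (adjusted p = 0.00924). The scMSC call was lost without control replicate 1 or 3 or scMSC replicate 2, at an adjusted p of up to 0.0908. The Cry1 to Cry2 ratio was 0.372 to 0.513 in control libraries and 0.914 to 1.497 over the 9 exposed libraries, which did not overlap.

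Per2, the period gene that takes in many signals from outside the clock (ENSMUSG00000055866, chr1:91415982-91459324, minus strand), had 4.74, 4.54 and 6.19 FPKM in control, 3.68, 3.37 and 4.96 in DNCB, 8.30, 5.41 and 7.75 in scMSC, and 8.45, 9.42 and 7.24 in scivMSC libraries. DNCB and control libraries overlapped, and the 6 MSC libraries were above all 3 DNCB libraries. The difference between DNCB and control was -0.55 ± 0.18 and passed narrowly (adjusted p = 0.0439). That call was lost under 12 of 21 alternatives, with adjusted p between 0.0168 and 0.239 over all of them. Against control the differences were 0.31 ± 0.18 in scMSC (adjusted p = 0.259) and 0.52 ± 0.18 in scivMSC skin (adjusted p = 0.0764). The latter passed under 3 alternatives (lowest adjusted p = 0.0402), library size alone and limma on log2(FPKM + 0.1) and log2(FPKM + 1). These scale libraries by size only, and for library size alone the shift of all genes is given with Arntl below.

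Per1, an early responding period gene with an E-box in the window above (ENSMUSG00000020893, chr11:69095217-69109960, plus strand), passed in no comparison. FPKM was 8.75, 15.4 and 18.1 in control, 10.8, 10.8 and 13.2 in DNCB, 26.6, 10.1 and 11.9 in scMSC, and 21.1, 19.8 and 14.4 in scivMSC libraries. The control range held all DNCB values, and the first scMSC library was the highest of the 12. The difference from control was -0.46 ± 0.33 in DNCB (adjusted p = 0.352), 0.03 ± 0.33 in scMSC (adjusted p = 0.964) and 0.21 ± 0.33 in scivMSC skin (adjusted p = 0.743).

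By the edgeR test neither gene of the activator arm passed in any comparison, and each passed under some alternative given with its values. Arntl (ENSMUSG00000055116, chr7:113207465-113314126, plus strand) stood at 1.22, 1.55 and 1.95 FPKM in control, 1.73, 1.70 and 1.62 in DNCB, 2.62, 2.28 and 1.90 in scMSC, and 3.49, 2.32 and 2.17 in scivMSC libraries. The DNCB values lay inside the control range, and all scivMSC values lay above it. The difference from control was -0.08 ± 0.21 in DNCB (adjusted p = 0.828), 0.37 ± 0.21 in scMSC (adjusted p = 0.249) and 0.58 ± 0.21 in scivMSC skin (adjusted p = 0.0944). With library size alone as the scale, Arntl in scivMSC skin differed by 0.76 (adjusted p = 0.0408), a scale on which the median of all tested genes was itself 0.21 above control. Against DNCB, Arntl in scivMSC skin passed with DESeq2 (adjusted p = 0.0375). The direction of Arntl and Cry1 between DNCB and control turned with the scale too, to 0.10 and 0.18 by library size alone, where the median of all genes stood at 0.20.

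Clock (ENSMUSG00000029238, chr5:76209868-76304792, minus strand), which encodes the partner of BMAL1, was the least even member. Its FPKM was 1.37, 0.994 and 1.82 in control, 3.33, 3.49 and 3.91 in DNCB, 3.57, 0.541 and 2.29 in scMSC, and 4.01, 2.80 and 0.777 in scivMSC libraries. The DNCB libraries lay close together above all control libraries, while the second scMSC and the third scivMSC library lay below every control library. Of the 6 MSC libraries, these had the lowest summed FPKM of fibroblast markers (245 and 124). The same held for macrophage and monocyte markers (56.7 and 20.3) and endothelial markers (20.7 and 13.98). In no other compartment read below were both the lowest, and their skeletal muscle sums, 4145 and 10600, were the lowest and highest of the 6. All control libraries lay above both in macrophage and monocyte sums and in endothelial sums. For fibroblast markers the second control library, at 232, lay below the second scMSC library, with Clock at 0.994 against 0.541 FPKM. The part of these cells in the Clock values was not tested. The difference between DNCB and control was 1.18 ± 0.60 (adjusted p = 0.180). With the 6 libraries of these groups fitted alone, it was 1.16 ± 0.20 (adjusted p = 0.00682), a fit that leaves out the widely spread MSC libraries. Ube2n-ps1 and Gm43658 lie within Clock on the same strand.

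**Figure D2:**
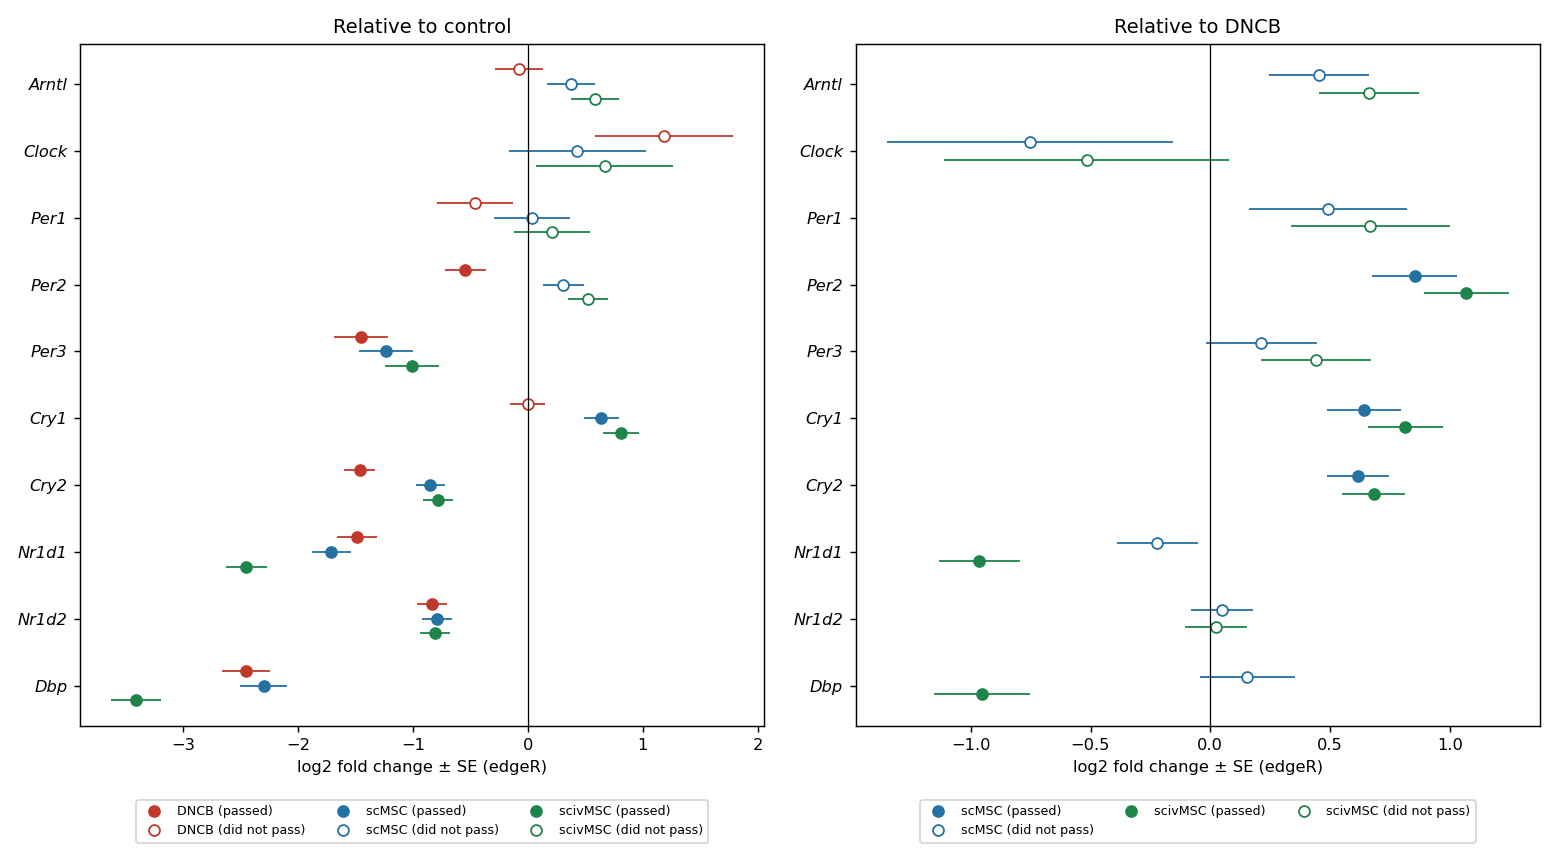
Log2 fold changes of the 10 clock genes with their SE (bars) from edgeR, against control in the left panel and against DNCB in the right panel, with filled points for genes that passed. Dbp at -3.41 in scivMSC skin is farthest from 0 on the left, and on the right Per2, Cry1 and Cry2 stand above 0 for both MSC groups while Nr1d1 and Dbp fall below 0 for scivMSC.

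The numbers passing against control were 6 of 10 in scMSC and 6 of 10 in scivMSC skin, beside 18.5% and 13.2% of all tested genes. In both groups the same 5 genes were lower, Per3, Cry2, Nr1d1, Nr1d2 and Dbp, and Cry1 was higher. Of all tested genes 8.12% and 6.13% passed as lower and 10.4% and 7.11% as higher. When a fold over 2 was required besides, 4 clock genes passed for DNCB, 3 for scMSC and 3 for scivMSC against control, beside 14.2%, 9.32% and 6.85% of all genes. With that rule 0 passed for scMSC and 1, Per2, for scivMSC against DNCB, beside 8.50% and 5.46%. Against control, FPKM values were fully separate for 37.6% of all genes in scMSC and 34.5% in scivMSC skin. Among the clock genes they were separate for the 6 that passed in each group, and in scivMSC skin for Arntl and Per2 as well.

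Differences between skin with and without MSCs under the same DNCB course were read from the comparisons with the DNCB group. No injection is described for the DNCB mice in the sources used here, so the cells and the act of injection cannot be told apart. In scMSC skin 3 of 10 clock genes passed, all higher, beside 12.7% of all tested genes in either direction and 6.95% as higher. Per2 rose by 0.85 ± 0.18 (adjusted p = 0.0108), Cry1 by 0.64 ± 0.16 (adjusted p = 0.0211) and Cry2 by 0.62 ± 0.13 (adjusted p = 0.0114). The values for Dbp at 0.16 ± 0.20 (adjusted p = 0.705), Nr1d1 at -0.22 ± 0.17 (adjusted p = 0.474) and Nr1d2 at 0.05 ± 0.13 (adjusted p = 0.882) did not pass. Without DNCB replicate 1 the count fell from 3 to 1, with Per2 left. Cry1 lost its call whenever DNCB library 1 or 2, or scMSC library 2 or 3, was left out (adjusted p up to 0.0874). Library values were separate for 4 of the 10, Arntl with Per2, Cry1 and Cry2, and for 33.1% of all genes.

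In scivMSC skin 5 of 10 clock genes passed against DNCB, 3 higher and 2 lower, beside 8.16% of all tested genes, 4.56% as higher and 3.60% as lower. Per2 rose by 1.07 ± 0.18 (adjusted p = 0.00766), Cry1 by 0.81 ± 0.16 (adjusted p = 0.0131) and Cry2 by 0.68 ± 0.13 (adjusted p = 0.0129). Nr1d1 fell by a log2 difference of -0.96 ± 0.17 (adjusted p = 0.00963) and Dbp by -0.95 ± 0.20 (adjusted p = 0.0188). Arntl at 0.66 ± 0.21 (adjusted p = 0.0810), Per1 at 0.67 ± 0.33 (adjusted p = 0.267) and Per3 at 0.44 ± 0.23 (adjusted p = 0.294) did not pass, although their scivMSC values were all above the DNCB values. In all, 8 of the 10 were separate between these groups, beside 32.7% of all genes. The count was 2 without DNCB replicate 1 (Per2 and Nr1d1), 3 without DNCB replicate 2 (Per2, Cry2 and Nr1d1) and 2 without scivMSC replicate 1 (Per2 and Nr1d1). Cry2 also missed the threshold without DNCB replicate 3. The lost calls had an adjusted p of up to 0.0592 for Cry1, 0.0581 for Cry2 and 0.0790 for Dbp.

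Between the MSC routes no clock gene passed, and 1 gene of all 21890 did, which is 0.00457%. Dbp was higher in scMSC than in scivMSC skin by 1.11 ± 0.20 (adjusted p = 0.565), at rank 6 of all genes by p-value, and Nr1d1 by 0.74 ± 0.17 (adjusted p = 0.565), at rank 33. These 2 genes alone of the 10 had an unadjusted p under 0.05 in edgeR, beside 7.50% of all genes, and these 2 alone had values separate between the routes, beside 10.8%. With DESeq2 both passed, Dbp at an adjusted p of 0.000436 and Nr1d1 at 0.0205, among 136 genes in all.

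Ratios of clock genes within a library do not depend on how libraries are scaled to each other. They set Dbp and Nr1d1 against Arntl, and Per2 and Cry1 against Dbp. Dbp exceeded Arntl by 24.9 to 33.6 times in control, 4.86 to 6.05 in DNCB, 3.10 to 5.08 in scMSC and 1.17 to 2.49 in scivMSC libraries. For Nr1d1 over Arntl the ranges were 22.8 to 43.7, 10.5 to 12.3, 5.88 to 8.06 and 2.51 to 4.54, with no overlap between any of the 4 groups. Per2 over Dbp ran the other way, from 0.115 to 0.128 in control through 0.328 to 0.621 in DNCB and 0.652 to 0.804 in scMSC to 1.34 to 2.28 in scivMSC skin. Cry1 over Dbp was 0.10 to 0.123, 0.461 to 0.819, 0.616 to 1.17 and 1.45 to 2.55 in the same order. The order from control to scivMSC held for the group ranges of Nr1d1 over Arntl and Per2 over Dbp, and DNCB and scMSC libraries overlapped for the other pair of ratios. These ratios were formed from genes whose separate values are given above and carry no test of their own.

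**Figure D3:**
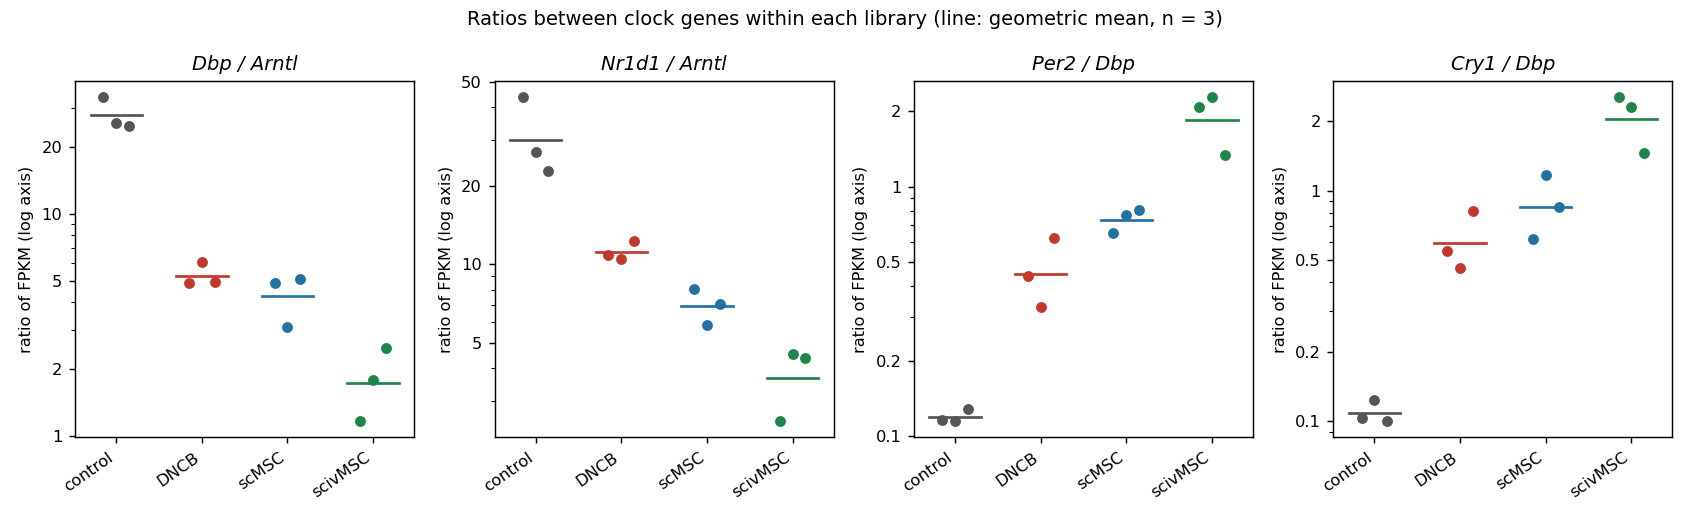
Ratios of FPKM between clock genes within each library (points; line, geometric mean of 3) on log axes. Dbp over Arntl and Nr1d1 over Arntl step down from control to scivMSC, while Per2 over Dbp and Cry1 over Dbp step up, to 1.34 to 2.28 and 1.45 to 2.55 in scivMSC libraries.

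The arms as a whole were averaged as the mean log2 FPKM of their genes. The E-box driven arm stood above the activator arm by 3.08 to 3.46 log2 units in control and by 1.62 to 1.68 in DNCB libraries. In scMSC libraries the gap was 1.93 to 2.76 and in scivMSC libraries 1.27 to 2.75, in groups where Clock itself ran from 0.541 to 4.01 FPKM. For the E-box driven arm alone, the mean log2 FPKM was 3.76 to 3.99 in control and 2.89 to 3.01 in DNCB libraries. It was 2.91 to 3.54 in scMSC and 3.12 to 3.17 in scivMSC libraries. Control libraries therefore lay above all others in this mean, and the scivMSC libraries lay above the DNCB libraries even though Dbp and Nr1d1 were lower there.

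The spread among libraries of a group differed widely between the members. The SD within groups, in log2 CPM (counts scaled to the normalized library size), was 0.92 for Clock, larger than for 93.8% of tested genes with at least 1 FPKM, and 0.45 for Per1. For Cry2 it was 0.14, for Nr1d2 0.15 and for Cry1 0.17, against a median of 0.28 over those genes. The remaining members, Nr1d1 at 0.21, Per2 at 0.22, Arntl at 0.25, Dbp at 0.26 and Per3 at 0.31, lay near or below that median. The range of group means was 3.42 for Dbp and 2.45 for Nr1d1, larger than for 96.3% and 93.1% of genes, and 0.64 for Arntl and 0.66 for Per1, near the median of 0.70.

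Among 20 further clock genes, 19 were tested and Fbxl21 was too low. Between DNCB and control 3 were higher and 7 lower, beside 25.3% of all genes in either direction, and the list median was -0.22 against 0.02 over all genes. Hlf, which encodes a D-box activator of the same family as Dbp, had mean FPKM of 6.15 ± 1.00 (SD, n = 3) in control skin and 1.32 ± 0.21 in DNCB skin, while scMSC and scivMSC skin held 3.00 ± 0.89 and 3.05 ± 0.81. It fell by 2.40 on the log2 scale with DNCB (adjusted p = 0.000471). Nfil3, whose product represses at D-boxes, rose by 1.43 ± 0.20 with DNCB (adjusted p = 0.00115), from 6.25 ± 0.96 to 19.2 ± 0.66 FPKM, and stayed above control by 1.96 ± 0.21 in scMSC (adjusted p = 0.000777) and 1.63 ± 0.20 in scivMSC skin (adjusted p = 0.00388). Rora, which encodes a receptor that activates Arntl at ROR elements, was lower with DNCB, at -1.11 ± 0.19 (adjusted p = 0.00241). Usp2 at -1.65 ± 0.17 (adjusted p = 0.000489), a deubiquitinase gene with a strong daily rhythm, was lower as well. So were the transcriptional repressor genes Bhlhe41 at -1.66 ± 0.27 (adjusted p = 0.00174) and Ciart at -1.51 ± 0.26 (adjusted p = 0.00229). Noct, the gene of the rhythmic protein nocturnin, was higher at 1.16 ± 0.24 (adjusted p = 0.00571).

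Against DNCB, 5 of the 19 genes were higher and none lower in scMSC skin, and 4 were higher and 1 lower in scivMSC skin, with list medians of 0.51 and 0.37 against 0.02 and 0.02 over all genes, of which 12.7% and 8.16% passed. Hlf rose by 1.20 ± 0.24 (adjusted p = 0.00835) and 1.22 ± 0.24 (adjusted p = 0.0136) in the MSC groups. For Dbp, its relative, the values given above were 0.16 and -0.95. Usp2 and Ciart rose in scMSC skin at 0.95 and 0.94 (adjusted p = 0.00576 and 0.0349). In scivMSC skin their values were 0.57 and 0.90 (adjusted p = 0.0655 and 0.0553). Rora passed in scivMSC skin at 0.88 ± 0.19 (adjusted p = 0.0209). Against control 3 were higher and 4 lower in scMSC skin and 2 were higher and 4 lower in scivMSC skin, beside 18.5% and 13.2% of all genes in either direction. The list medians were -0.21 and -0.04, against 0 and 0.04 over all genes. None of the 19 passed between the routes, and 1 had an unadjusted p under 0.05.

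**Figure D4:**
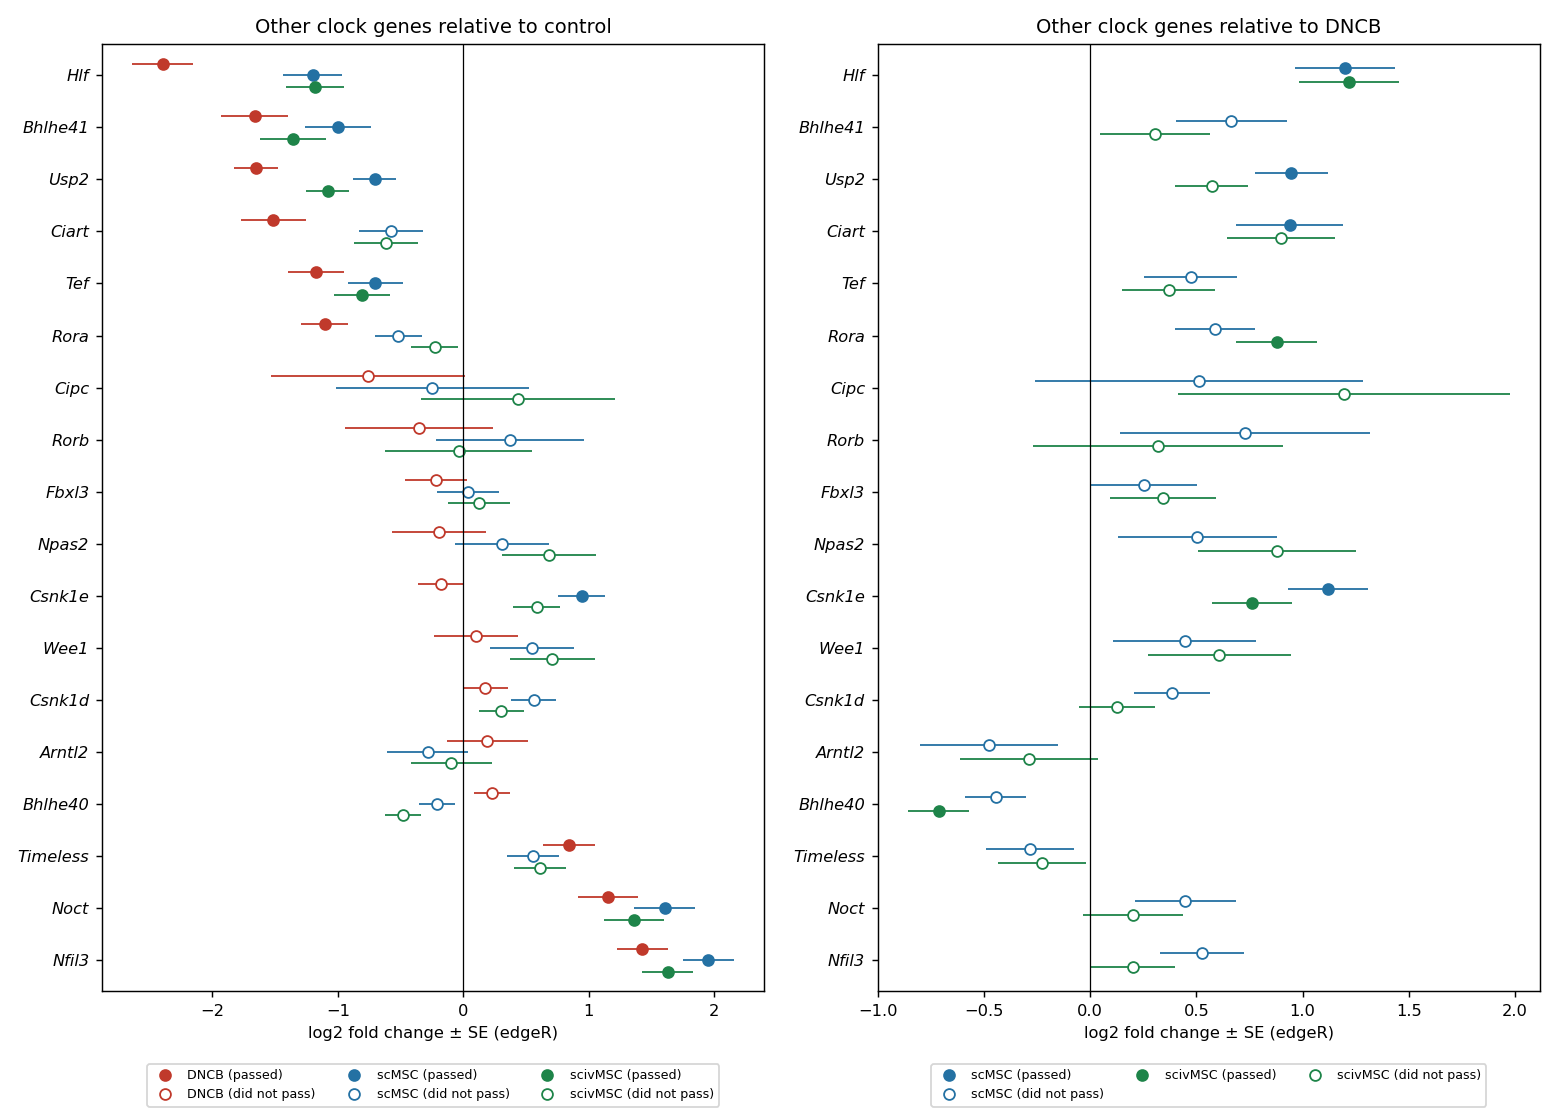
Log2 fold changes with SE of 18 of the 19 tested further clock genes, against control in the left panel and against DNCB in the right panel, filled where the gene passed. Hlf at -2.40 is lowest and Nfil3 highest on the left, and Hlf is above 0 in both MSC groups on the right.

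A list of 13 glucocorticoid-responsive genes was read beside the clock, since adrenal hormones act on clock genes in skin. With DNCB 3 were higher and 3 lower, beside 25.3% of all genes in either direction, and the list median was 0.02, as over all genes. Fkbp5, a chaperone gene that glucocorticoids induce, rose by 1.25 ± 0.41 (adjusted p = 0.0464), and the metallothionein genes Mt1 and Mt2 also passed as higher. Tsc22d3, which encodes GILZ, at -0.96 ± 0.32 (adjusted p = 0.0492), Klf9 at -1.24 ± 0.24 (adjusted p = 0.00467) and the receptor gene Nr3c1 were lower. Against DNCB only Pdk4, a kinase gene of fuel choice, rose in scMSC skin, by 2.04 ± 0.48 (adjusted p = 0.0182). In scivMSC skin Pdk4 rose by 2.34 ± 0.48 (adjusted p = 0.0175) and Tsc22d3 by 1.43 ± 0.33 (adjusted p = 0.0250). These 1 and 2 of 13 stood beside 12.7% and 8.16% of all genes, with list medians of 0.23 and 0.34 against 0.02 and 0.02. Against control, Fkbp5 and Cdkn1a were higher and Klf9 and Nr3c1 lower in scMSC skin, while Fkbp5 was higher and Nr3c1 lower in scivMSC skin. These 4 and 2 genes compare with 18.5% and 13.2% of all genes, and the list medians were 0.59 and 0.67 against 0 and 0.04.

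The makeup of the tissue moved with the groups as well. Muscle, hair follicles and blood-borne cells in a skin sample carry clocks of their own, and the summed FPKM of markers of 11 compartments was read beside the clock genes. The 8 skeletal muscle markers summed to 15040 to 21890 in control, 3936 to 5863 in DNCB, 4145 to 8765 in scMSC and 4513 to 10600 in scivMSC libraries. Of these 8 markers, 7 passed as lower than in control in each exposed group, and none passed between an MSC group and DNCB. Of all tested genes 12.4%, 8.12% and 6.13% passed as lower than in control in DNCB, scMSC and scivMSC skin. Against DNCB, 12.7% and 8.16% of all tested genes passed in scMSC and scivMSC skin. The 6 neutrophil markers summed to 120 to 207 in control, 2488 to 3476 in DNCB, 16.0 to 66.5 in scMSC and 35.1 to 181 in scivMSC libraries, with Retnlg and Clec4d at 0 in some control libraries. The 10 hair shaft and inner root sheath markers summed to 4.64 to 300.1 in control, 286.8 to 897.7 in DNCB, 6374 to 18080 in scMSC and 2367 to 5873 in scivMSC libraries, none of them at 0. All 6 MSC libraries exceeded all others in this sum. Sebaceous gland markers (6) summed to 553 to 692 in control libraries, fell to 74.8 to 101 with DNCB, and reached 335 to 570 and 336 to 787 in the scMSC and scivMSC groups. All 6 of them passed as lower with DNCB and as higher in each MSC group against DNCB. Of all tested genes 12.4% passed as lower with DNCB. Against DNCB, 6.95% and 4.56% passed as higher in scMSC and scivMSC skin. Fibroblast markers (6) stood at 232 to 346 in control, 1916 to 2233 with DNCB, 245 to 750 with scMSC and 124 to 946 with scivMSC. For basal keratinocytes (6 markers) the sums were 2183 to 3028, 8197 to 10480, 1760 to 2593 and 2892 to 5513 in the same order. Krt14 and Krt5 weighed most in the DNCB sums, at means of 6347 and 2901 FPKM. With DNCB, 4 of these 6 passed as higher, beside 25.3% of all tested genes in either direction. Krt15 went the other way, at a log2 difference of -1.695 (adjusted p = 0.00726), and Col17a1 did not pass. Sebaceous, fibroblast and basal keratinocyte sums of the DNCB libraries all lay outside those of the other groups, and endothelial sums (5 markers) did as well, at 49.5 to 61.2 against 13.98 to 39.4 in the other libraries. Macrophage and monocyte markers (6) summed to 74.96 to 286 in control, 204 to 276 in DNCB, 56.7 to 152 in scMSC and 20.3 to 141 in scivMSC libraries. The sums of suprabasal keratinocyte, adipocyte and T cell markers overlapped between control and DNCB, and 1 of the T cell markers was at 0 in some libraries. Single markers did differ with DNCB, where 25.3% of all tested genes passed. Lor, 1 of 6 suprabasal markers, passed as lower (adjusted p = 0.000948), as did 3 of 6 adipocyte markers, Plin1, Cidec and Lipe. Cd4, 1 of 5 tested T cell markers, passed as higher (adjusted p = 0.0357). The part of these compartments in the clock gene differences was not tested.

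**Figure D5:**
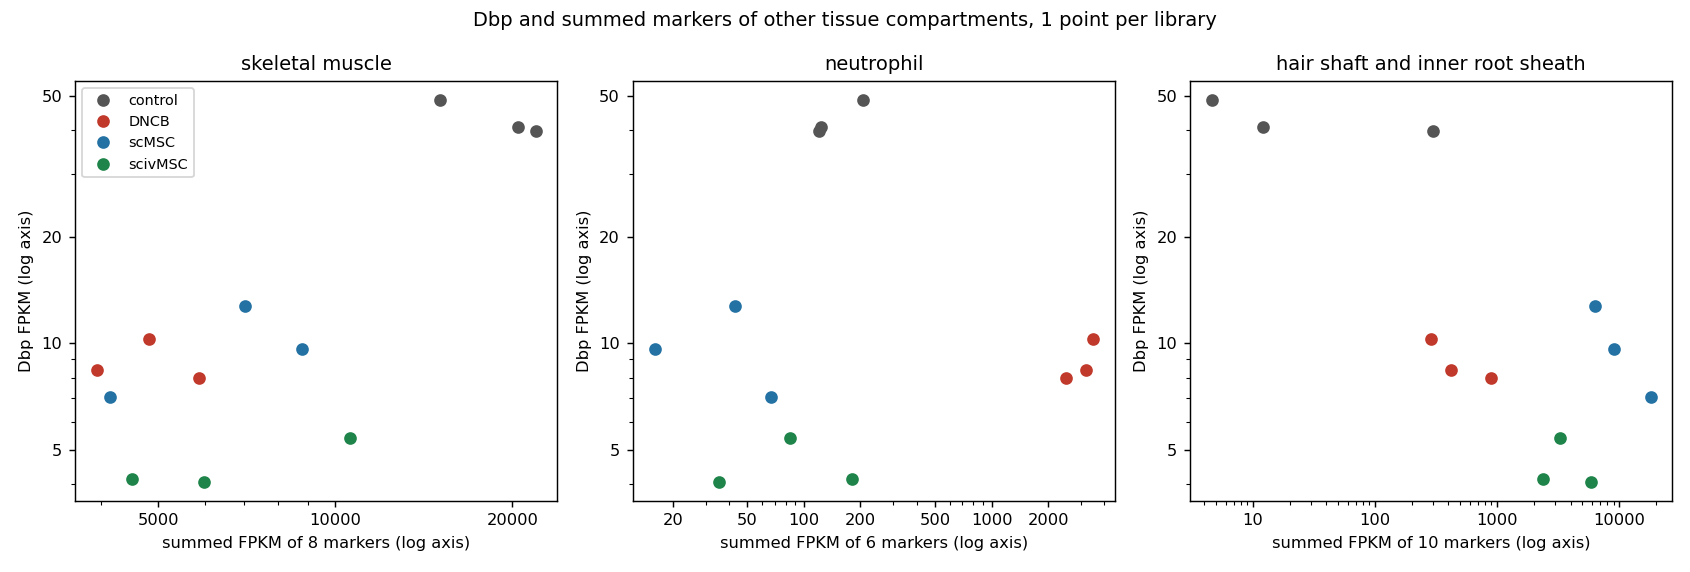
Dbp FPKM against the summed FPKM of skeletal muscle, neutrophil, and hair shaft and inner root sheath markers, 1 point per library, on log axes. Control libraries lie apart at the top of each panel, and the scivMSC points, with muscle sums from 4513 to 10600, are lowest for Dbp.

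Across the 12 libraries, and among all tested genes with at least 1 FPKM, the gene whose log2 CPM was most like that of Dbp was Nr1d1 (Pearson r = 0.97, n = 12). Nr1d2 came at rank 24 (r = 0.93). Ranks 2 to 8 were held by Wwp1, Rnf139, Coa5, Oaz1, Narf, Lactb2 and 2310009B15Rik in that order, at r of 0.97 to 0.95. Papolg, Txlna, Atxn2l and Dzip1l had the most opposite values, at r of -0.96 to -0.95. For Arntl the most like genes were Aldh3b3 (r = 0.96), Abcg4, Ephb6, Smpdl3a, Trp53inp1, Zfp598, Hip1r and Btg1 (r = 0.89), and the most opposite were Kars (r = -0.95), Tbcc, Relt and Prpf19. Cry1 was the clock gene most like Arntl (r = 0.78, rank 150), and the r of Clock with Arntl was -0.02. These are descriptions: the points share 4 groups, and the control libraries stand apart from the others for Dbp.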

How the data were processed

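Dorsal skin RNA of 12 mice, 3 per group, was analysed. The deposited table holds FPKM, which the authors had divided by transcript length and library size. It also holds estimated counts per gene, as whole numbers, which the authors left without normalization between libraries. The submitters' processing notes list Bowtie 0.12.2, HISAT2 2.0, StringTie 1.3.0 and the build mm8, without saying what each was used for. Gene identifiers matched GENCODE M21 on GRCm38 for 36287 of 36400 genes, and positions of the 10 clock genes in the table are those of that annotation. Groups were taken from the sample titles.

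Estimated counts summed to between 63877153 and 75134001 per library. Of counts from 1 to 18, 38.9% to 41.2% were multiples of 4, so a count of 1 may not stand for 1 fragment, and how counts were estimated is not given in the sources used here. Counts were fitted in edgeR 4.0.16 (R 4.3.3) with TMM normalization and the quasi-likelihood F-test, in 1 model of the 4 groups, for 21890 genes that averaged 0.1 FPKM or more. TMM factors ran from 0.887 to 1.06. Adjusted p-values are Benjamini-Hochberg values over all tested genes, and the SE was derived from the F statistic. The script was tested on simulated data. With 3 against 3 libraries an exact permutation test of a single gene cannot give a two-sided p below 0.10, so none was used.

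The clock genes and the other gene lists were chosen with earlier results of these data known. Of the further clock and the glucocorticoid-responsive genes, up to 8 per list that passed in some comparison and averaged 1 FPKM or more are named, by smallest adjusted p. Of the further clock genes, 1 is counted in the list but its values are not reported here. Likeness names the 8 highest and 4 lowest correlations. Alternatives were DESeq2 1.42.0, other size factors, other filters, limma 3.58.1 on log2(FPKM + 0.1) and log2(FPKM + 1), 6 libraries alone, a fold threshold, each library left out, and the replicate number as a block.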

Additional observations from a re-analysis of the deposited data

How the results depend on the processing

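Of 1260 values of the clock genes under 21 alternatives, 1188 kept direction and side of the threshold, 32 lost the threshold, 8 gained it and 32 turned. The gained ones were Arntl in scivMSC skin (against DNCB by DESeq2 and against control by library size alone), Per2 in scivMSC against control (by library size alone and by limma with either pseudocount, at an adjusted p down to 0.0402), Clock in DNCB against control (6 libraries alone), and Dbp and Nr1d1 between the routes (DESeq2). None of the 26 passing results turned, and 8 missed the threshold under some alternative. A fold threshold of 2 besides the adjusted p left 0 clock genes for scMSC against DNCB, 1 for scivMSC against DNCB, and 3 for each MSC group against control. DESeq2 passed 2 genes between the routes. With 1 library left out, the counts ran from 5 to 6 for DNCB against control, 1 to 3 and 2 to 5 for scMSC and scivMSC against DNCB, 5 to 6 and 5 to 6 against control, and 0 to 0 between the routes.

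Values that turned in direction all belonged to results that had not passed, and the cause was not tested. Between DNCB and control, Arntl was 0.10 by library size alone and 0.12 and 0.07 by limma with pseudocounts of 0.1 and 1, and Cry1 was 0.18, 0.16 and 0.14. Per1 in scMSC against control was -0.005 without a filter. With a library left out, the ranges were -0.257 to 0.023 for Arntl and -0.178 to 0.091 for Cry1 in DNCB against control. For scMSC against DNCB they were -0.022 to 0.696 for Per1, -0.053 to 0.121 for Nr1d2, -0.044 to 0.292 for Dbp and -0.076 to 0.40 for Per3, and for scivMSC against DNCB -0.079 to 0.082 for Nr1d2. Against control they were -0.132 to 0.817 for Clock and -0.48 to 0.213 for Per1 in scMSC skin and -0.068 to 0.348 for Per1 in scivMSC skin. Between the routes they were -0.328 to 0.014 for Arntl, -0.80 to 0.253 for Clock, -0.69 to 0.028 for Per1 and -0.078 to 0.114 for Nr1d2.

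No pairing by replicate number was seen. Deviations from the group means correlated at -0.19 to 0.13 for same-numbered and -0.15 to 0.15 for differently numbered libraries, and 3 of 12 libraries correlated best with their own number. Deviations within a group of 3 are tied to each other, so this check has little power to find a pairing. With the replicate number as a block, 6 clock genes passed for DNCB against control, 3 and 5 against DNCB in scMSC and scivMSC skin, 6 and 6 against control, and 0 between the routes, and Per1 in scMSC against control was -0.018. Groups of 3 libraries limit what can be seen for Clock and Per1, whose SE were 0.60 and 0.33.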
